A study of Mus musculus with 2 samples.

Results

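Dividing T cells were picked out of a library labelled as IL-10+ CD4+ T cells of the mouse small intestine by the UMIs (unique molecular identifiers, each standing for 1 captured RNA molecule) of 5 proliferation genes. A cell was taken as cycling when the summed UMIs of Mki67, Top2a, Birc5, Cdk1 and 2810417H13Rik (also named Pclaf) came to at least 4 and mitochondrial genes held less than 6% of its UMIs. Of 1474 barcodes, 1408 were below the mitochondrial cut, and 94 of these (6.68%, exact 95% interval 5.43 to 8.11) were cycling, with 1314 other cells to compare them with. The 5 genes are thus high in the 94 cells by choice. Since the cells were chosen on their own transcripts, every level given for them is a description and none is a test.

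The library came from mice that carry both an IL-10 eGFP and a Foxp3 mRFP reporter, in which cells that transcribe Il10 or Foxp3 fluoresce, and cells with the IL-10 reporter were sorted with the Foxp3+ cells among them. All mice had been given 2 injections of 15 µg anti-CD3 antibody (clone 2C11) on days 0 and 2, which activates T cells through their receptor, and were killed 4 h after the second. At 8 to 16 weeks of age, they came from shared litters and were balanced for age and sex. The methods describe the isolation of intraepithelial and of lamina propria lymphocytes without naming which of them entered the library. A library of the spleen was made from the same kind of mouse with the same treatment. Neither an untreated mouse nor a sort of cells without the IL-10 reporter was part of these mouse 10X libraries. With 1 library per tissue, and the number of mice behind it not named in the sources used here, intervals cover counting error only, and a difference between tissues cannot be told apart from one between libraries.

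A dividing cell copies its DNA in S phase and separates the copies in mitosis. Genes for replication enzymes and histones are transcribed mainly at the start of and during S phase, and genes for the spindle, the kinetochores and the cyclins that drive mitosis mainly in G2 and M. Many of their promoters hold CCAAT boxes, through which the factor NF-Y activates them, and are repressed in resting cells through the CHR element and E2F-type sites. T cells divide after their receptor has been engaged, and in the gut wall a large share of T cells are resident cells with stored granzymes and chemokine transcripts, among them intraepithelial cells that carry CD8.

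The promoters of genes that were high in the cycling cells are shown to make these elements visible. Each is the 140 bases before the RefSeq start of the gene (GRCm38.p6), read 5′ to 3′ on the strand of the gene. Capitals mark CCAAT, the CHR words TTTGAA and also TTCGAA, and the E2F-type words TTTGGCGC, TTTCCCGC and TTTCGCGC, each searched on both strands, so that ATTGG is a CCAAT box on the other strand. Cdk1 and Top2a belong to the rule, Cdc20, Ube2c, Cks1b and Nusap1 to mitosis, and Mcm3 and Rrm2 to replication.
Cdk1 (chr10:69352913-69353052, minus strand): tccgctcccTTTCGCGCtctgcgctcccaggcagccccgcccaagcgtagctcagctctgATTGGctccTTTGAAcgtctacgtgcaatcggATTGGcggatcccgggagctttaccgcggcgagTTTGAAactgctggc
Top2a (chr11:99024190-99024329, minus strand): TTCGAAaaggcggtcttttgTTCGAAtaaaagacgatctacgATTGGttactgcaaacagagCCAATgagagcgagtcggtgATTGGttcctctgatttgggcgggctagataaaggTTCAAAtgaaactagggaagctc
Cdc20 (chr4:118437344-118437483, minus strand): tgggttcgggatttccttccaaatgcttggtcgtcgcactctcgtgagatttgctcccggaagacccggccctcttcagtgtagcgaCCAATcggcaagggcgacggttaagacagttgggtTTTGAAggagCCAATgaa
Ube2c (chr2:164769789-164769928, plus strand): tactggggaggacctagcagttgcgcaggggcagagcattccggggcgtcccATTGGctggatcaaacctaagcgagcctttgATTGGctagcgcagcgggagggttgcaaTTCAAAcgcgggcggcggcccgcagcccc
Cks1b (chr3:89418292-89418431, minus strand): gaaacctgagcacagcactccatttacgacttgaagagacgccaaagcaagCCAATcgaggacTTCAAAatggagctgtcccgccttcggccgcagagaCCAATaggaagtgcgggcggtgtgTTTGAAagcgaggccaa
Nusap1 (chr2:119618158-119618297, plus strand): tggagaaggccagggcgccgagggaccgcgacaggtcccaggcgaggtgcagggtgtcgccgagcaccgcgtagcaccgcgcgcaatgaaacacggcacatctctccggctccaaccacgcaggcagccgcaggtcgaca
Mcm3 (chr1:20820313-20820452, minus strand): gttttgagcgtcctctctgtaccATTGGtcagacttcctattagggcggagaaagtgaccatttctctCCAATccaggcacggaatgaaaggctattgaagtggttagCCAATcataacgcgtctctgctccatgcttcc
Rrm2 (chr12:24708114-24708253, plus strand): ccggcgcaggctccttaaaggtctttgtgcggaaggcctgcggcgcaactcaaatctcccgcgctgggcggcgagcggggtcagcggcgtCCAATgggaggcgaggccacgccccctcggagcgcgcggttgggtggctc

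In the 250 bases before the start, CCAAT was present in 33.8% of 32851 promoters of all genes, in 65.6% of 64 promoters of the mitosis list and in 61.4% of 44 of the replication list. TTTGAA or TTCGAA was present in 17.1% of all promoters, in 43.8% of those of the mitosis list and in 18.2% of those of the replication list. The E2F-type words were present in 1.53% of all promoters, in 6.25% of the mitosis list and in 18.2% of the replication list. CCAAT together with TTTGAA or TTCGAA stood in 6.02% of all promoters, 34.4% of the mitosis list and 15.9% of the replication list. The stretches shown were picked to show the elements, apart from that of Nusap1, the gene outside the rule with the highest ratio among those with 200 UMIs, in which none of them was found. None was found in the same 140 bases of Birc5 and Tyms either, and those of Mki67 held TTTGAA without CCAAT. These are matches of letters. Binding was not measured.

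Few cells lay near the threshold of the score that chose them. Of the 1408 cells, 1164 had none of the UMIs, 118 had 1, 27 had 2 and 5 had 3. Just inside, 6 cells had 4 and 7 had 5, then 9 cells had 6 to 9, 39 had 10 to 19 and 33 had 20 or more, with a highest value of 42. The median was 17 UMIs (quartiles 11.25 and 22.75). Stmn1, a tubulin-binding protein that marks proliferating cells and was not in the rule, followed these classes, with 20.5 CPM (UMIs per 1000000 UMIs, over the cells summed) at 0 rule UMIs, 35.0 at 1, 261 at 2, 172 at 3, 417 at 4, 501 at 5, 1340 at 6 to 9, 1417 at 10 to 19 and 1573 at 20 or more. By Stmn1, the cells at 2 to 5 therefore lay between both groups. The group is set by a cut on a score, and whether it is a separate type was not tested.

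**Figure D1:**
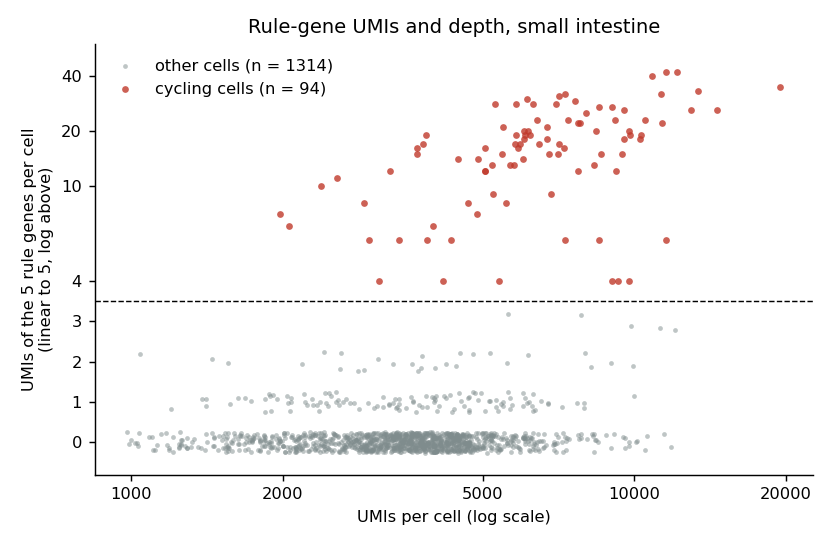
Each point is an intestinal cell below the mitochondrial cut, with its UMIs on the x axis (log scale) and the UMIs of the 5 rule genes on the y axis. The dashed line is the threshold: 94 cells lie at 4 or more and 1314 below it, where most have 0, and the cycling cells reach higher depths.

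The cycling cells were also the deeper ones. Their median was 6432 UMIs (range 1972 to 19521) and 2218.5 genes, against 3607 UMIs and 1435.5 genes in the other cells, a ratio of medians of 1.78 for UMIs. Together they held 659699 UMIs and the other cells 4914885, so 3 UMIs are worth 4.55 CPM in the former and 0.610 CPM in the latter. When 2000 UMIs were drawn at random from each cell and shallower cells were left out, 60 of 1256 cells (4.78%, 3.66 to 6.11) still had 4 rule UMIs. The doublet caller Scrublet marked 0 of the 94 cells and 4 of all 1474 barcodes, and 4 cycling but 0 other cells had over 12864 UMIs, which is 2 times the cycling median. A larger RNA content of a dividing cell and a droplet with more than 1 cell cannot be told apart by depth.

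In the spleen, 401 of 1681 cells (23.9%, 21.8 to 26.0) passed the same rule, and 238 of 1655 (14.4%, 12.7 to 16.2) did at 2000 UMIs. The share of this intestinal library was thus the lower at both depths. The intervals cover the counting of cells alone, and with 1 library per tissue no difference between tissues was tested. The splenic cycling cells had a median of 9481 UMIs and the other splenic cells 4933.5. No barcode sequence was shared by the libraries (0 shared).

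The 94 cells carried the transcripts of T cells. Cd3d, a chain of the T cell receptor complex, had UMIs in 94 of 94 cells, Cd3e in 93 and Lck, the kinase bound to the coreceptors, in 89. Il10 had UMIs in 74 of 94 cells (78.7%, 69.1 to 86.5) and in 929 of 1314 other cells (70.7%, 68.2 to 73.2). With 2000 UMIs drawn per cell, and cells kept as cycling or other by the deposited counts, the shares were 57.0% of 93 (46.3 to 67.2) and 58.0% of 1163 (55.1 to 60.8), and these intervals overlapped. The eGFP reporter transcript had 0 UMIs in the cycling cells and 6 in the others, so it does not check the sort here. Foxp3, the factor of regulatory T cells, had 3 UMIs in 2 of the 94 cells and 37 UMIs in 27 of the others. Of the B and plasma cell markers, Cd79b had 3 UMIs (4.55 CPM against 8.34) while Cd79a, Ms4a1, Jchain and Mzb1 were at 0. The myeloid markers summed to 183 CPM in the cycling and 238 CPM in the other cells, Cst3 being the most abundant with 167 and 140 CPM, and Lyz2, H2-Ab1, Csf1r, C1qa, Fcer1g and Tyrobp were at 0 in the cycling cells. The epithelial markers summed to 27.3 and 21.6 CPM, the NK and innate lymphoid markers to 59.1 and 65.9 CPM (Gata3 holding most), and the erythroid and stromal markers to 16.7 and 15.1 CPM, all Pecam1 in the cycling cells. Trac, Trbc1, Trbc2, Trdc and the Tcrg-C genes were not analysed here.

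Proliferation markers set the 94 cells apart, as the rule makes them. Mki67, the Ki-67 antigen of dividing cells, was at 282 CPM against 6.92 in the other intestinal cells. Top2a, which untangles replicated DNA, was at 568 against 15.7 CPM, and Birc5 (survivin), a subunit of the chromosomal passenger complex, at 732 against 7.53 CPM. Cdk1, the kinase of mitotic entry, was at 221 against 1.22 CPM and 2810417H13Rik, a partner of PCNA at the replication fork, at 655 against 6.71 CPM. These 5 chose the cells. Stmn1 (chr4:134468320-134473843, GRCm38), the remaining marker, was at 1363 CPM (1275 to 1455) against 28.9 CPM, with UMIs in 88 of 94 cycling and 102 of 1314 other cells.

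Across the transcriptome, 3481 genes outside the rule had at least 200 UMIs over both groups. Of these, 372 (10.7%) were at least 1.5-fold higher in the cycling cells and 380 (10.9%) at least 1.5-fold lower, and the median log2 ratio of all was −0.03. The balance moved with scaling and depth, to 431 higher and 298 lower with the cell cycle lists left out of the totals, 399 and 334 with median-ratio scaling, and 462 and 569 at 2000 UMIs. In the spleen, 653 of 5307 genes (12.3%) were higher and 339 (6.39%) lower by the same measure, with a median of 0.02. These counts are of values past a fold, with no test. The gene lists below are read beside these shares.

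Genes of mitosis stood highest. The list of mitosis and G2/M genes summed to 12303 CPM (8116 UMIs) in the cycling and 902 CPM in the other cells, and all 16 of its 71 members that reached 200 UMIs were at least 1.5-fold higher, with a median log2 ratio of 4.39. The other 55 members had too few UMIs. A gene that the other cells lack passes the filter only through the cycling cells, so counts for such lists had to lean upwards, while the sums above take in every member. Nusap1 (chr2:119618298-119651244), which bundles spindle microtubules, was at 329 CPM against 2.44, a 135-fold ratio (75.6 to 265). Cdc20 (chr4:118432901-118437352), the activator of the anaphase-promoting complex, was at 297 against 3.05 CPM (97.3-fold, 57.6 to 177). Cks1b, a subunit of cyclin-dependent kinases, was 56.2-fold higher, Ccnb2 (cyclin B2) 33.0-fold and Ube2c, the ubiquitin-conjugating enzyme of the same complex, 29.9-fold. Cdca8, of the passenger complex, was 62.6-fold higher and Cenpf, of the kinetochore, 48.6-fold. These genes were not evenly spread over the cells: Nusap1 had UMIs in 68 of the 94 cells and Cdc20 in 57, against 10 and 14 of the 1314 others.

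Genes of DNA replication were higher by less. The list of 46 summed to 5296 CPM against 1125 CPM, and 13 of the 14 members with 200 UMIs were past 1.5-fold upwards, 0 downwards, with a median of 1.70. Rrm2, a subunit of ribonucleotide reductase, was at 271 against 7.32 CPM (37.0-fold, 25.8 to 54.6). Mcm3, of the replicative helicase, was at 196 against 8.14 CPM, with fewer than 200 UMIs in all. Pcna, the sliding clamp, had a log2 ratio of 1.39 (1.11 to 1.66) and was already at 87.9 CPM in the other cells, and Mcm6 had 0.76 from 105 CPM. Rpa2, of the single-strand binding protein, had the lowest ratio, 0.52, and was the member short of 1.5-fold.

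Of these proliferation lists, histones, chromatin proteins and tubulins took the largest share of UMIs. The 31 genes made 2.57% of UMIs in the cycling and 0.425% in the other cells, and 24 of 25 members were higher, with a median of 2.47. Hmgb2, a chromatin protein, was at 3955 CPM against 481, with UMIs in all 94 cells and a median over cells of 3785 CPM. Hist1h2ap, a replication-dependent H2A histone, was at 1604 against 18.7 CPM, but in 61 cells only and with an upper quartile of 2610 CPM. Its sequence is nearly the same as that of other H2A copies, among which reads could have been divided. Tubb5 was at 2688 against 204 CPM and Tuba1b at 1396 against 70.6 CPM, both also members of families of near copies. Lmnb1 (lamin B1) was the exception, at 449 against 503 CPM, while in splenic cells the log2 ratio was 1.25.

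The cells were at different points of the cycle. The classifier cyclone placed 58 of the 94 (61.7%) in G2/M, 7 in S and 29 in G1, against 9, 10 and 1295 of the 1314 other cells. Mki67, Birc5 and Cdk1 of the rule are also among the genes that cyclone reads. In the 29 cells called G1, Mcm3 was at 360 CPM (283 to 451) and Cdc20 at 72.0 CPM, while in the 58 called G2/M Mcm3 was at 95.8 CPM (67.5 to 132) and Cdc20 at 456 CPM. Tyms, which makes thymidylate for DNA, was at 230.5 CPM in G1, 321 in S and 75.1 in G2/M. Hist1h2ap was highest in the 7 cells called S, at 3245 CPM against 869 in G1 and 1722 in G2/M. The cells called G1 thus had more Mcm3 and Tyms than those called G2/M, and less Cdc20 and Hist1h2ap. Per 10000 UMIs, the replication list ranged over cycling cells from 5.07 to 141 (median 39.2) and the mitosis list from 4.80 to 297 (median 114), against medians of 10.0 and 7.83 in the other cells. In the spleen 181 of 401 cycling cells were called G1, 52 S and 168 G2/M (41.9%, 37.0 to 46.9, against 51.1 to 71.5 for the intestinal library), which was not tested between tissues. The part that depth and free RNA have in such calls was not tested.

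**Figure D2:**
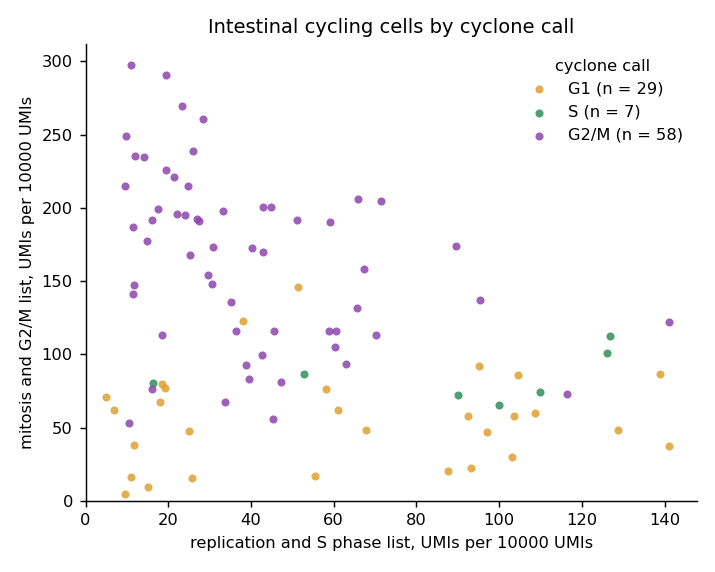
Each of the 94 intestinal cycling cells is placed by the UMIs per 10000 of the replication and S phase list (x axis) and of the mitosis and G2/M list (y axis), coloured by the cyclone call. Cells with over 200 mitosis UMIs per 10000 are all called G2/M, and the cells called G1 reach as far along the replication axis as those called S.

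Genes that hold or brake the cycle lay on both sides. Of 18 measured members of the list of CDK inhibitors, D cyclins and quiescence genes, 2 were past 1.5-fold upwards and 5 downwards, with a median of −0.15. Over all genes the shares were 10.7% and 10.9%. Cdkn1a, the inhibitor p21, was at 124 against 252 CPM (log2 −1.02, −1.36 to −0.69), but had −0.24 against other cells of matched depth and 0.56 in cells with both Cd8 genes, as described below. Btg2 and Tob1, of the antiproliferative BTG family, had −0.69 and −0.63, but 0.15 and 0.061 against depth-matched other cells. Ccnd2 (cyclin D2) had −0.75, but −0.55 against depth-matched other cells, where Foxp1 of the same list had −0.42. None of the lower genes named here was past 1.5-fold downwards in that comparison. On the other side, Cdk4, the kinase of the D cyclins, was at 124 against 42.5 CPM (2.92-fold, 2.24 to 3.79), and Cdkn2c, the inhibitor p18 with 199 UMIs and so just under the filter, was at 152 against 20.1 CPM.

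Growth and metabolism lists had medians a little above 0. The Myc growth and ribosome biogenesis list had 3 of 14 members up and 1 down with a median of 0.46, led by Pa2g4 (1.16, 0.77 to 1.54), a nucleolar growth regulator. Oxidative phosphorylation had 3 of 20 up and 0 down with a median of 0.37, with Cox7a2 at 0.83, Sdhd at 0.80 and Cox5a at 0.62. Glycolysis had 2 of 13 up (Tpi1, at 138 against 69.0 CPM, and Pgk1, at 63.7 against 41.9 CPM), 1 down (Slc2a3, a glucose transporter, −0.88) and a median of 0.22, but at 2000 UMIs the log2 ratio of Tpi1 was 0.44 and that of Pgk1 −0.10. Over all genes 10.7% were past 1.5-fold upwards, and counts from lists of this size are given as a description. Among the chaperones, Hspa8 was at 2010 against 1294 CPM (1.55-fold, 1.46 to 1.65) and Hsp90aa1 at 471 against 302 CPM. The list of dissociation and heat shock genes as a whole had 2 of 10 up, 1 down and a median of −0.24. The lower one was Junb (−0.61), which had 0.13 against depth-matched other cells. Fos, at 323 against 455 CPM, was within 1.5-fold.

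Several surface receptors of T cell effector and regulatory function were lower. Of 22 measured costimulators and cytokine receptors, 12 were at least 1.5-fold lower (against 10.9% of all genes) and 0 higher, with a median log2 ratio of −0.67. Of the 12, Cd40lg and Il18r1 turned direction against other cells of matched depth (0.013 and 0.14), as described below. Also of this list, Il2rg (−0.28) was short of 1.5-fold in that comparison, and Tnfrsf9 (−0.13) and Cd27 (−0.27) were at 2000 UMIs. Tnfrsf4 (OX40; chr4:156013843-156016612) was at 350.2 CPM (306 to 398) against 1004 (976 to 1032), 2.87-fold lower (2.51 to 3.28), with UMIs in 51 of 94 and 917 of 1314 cells. Tnfrsf18 (GITR) was at 397 against 821 CPM, 2.07-fold lower (1.82 to 2.35). Il12rb2, of the IL-12 receptor, was 2.91-fold lower and Il7r, of the IL-7 receptor, 3.04-fold lower (1.78 to 5.62) at 14 and 317 UMIs. Cd27, a costimulator of the same receptor family as OX40, had a log2 ratio of −0.82. Cd28 (0.23) and Cd69 (0.28) were on the other side.

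Of 8 measured coinhibitory receptors, 4 were at least 1.5-fold lower too and 0 higher, with a median of −0.64. Lag3 (chr6:124904361-124911705), which binds MHC class II, was at 985 CPM (911 to 1064) against 2486 (2442 to 2530), 2.52-fold lower (2.33 to 2.73), and its median over cells was 830 against 1639 CPM. Havcr2 (TIM-3) had a log2 ratio of −0.81 (−1.29 to −0.36), Lilr4b −0.92 and Lilrb4a −0.81, the last pair being near copies between which UMIs could have been divided. Ctla4 was at 1164 against 1415 CPM (−0.28) and Pdcd1 (PD-1) at 95.5 against 92.4 CPM (0.05, −0.36 to 0.43).

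Of 15 measured chemokine, granule and serpin genes, 7 were at least 1.5-fold lower, 8 were within 1.5-fold and 0 were higher, with a median of −0.47. Of this list, Serpinb9 (−0.33) and Plac8 (−0.36) were short of 1.5-fold at 2000 UMIs. Fasl (−0.48) was short of it against depth-matched other cells, and Ccl3 (−0.58) without the other cell that held most. Ccl5 (chr11:83525778-83530518), the chemokine that alone held 246763 of the 4914885 UMIs of the other cells, was at 22973 against 50207 CPM (2.19-fold lower, 2.15 to 2.22). Ccl4 was at 602 against 1236 CPM and Nkg7, a granule membrane protein, at 2068 against 3563 CPM. Granzymes differed by less. Gzmb was at 9332 against 12559 CPM (−0.43) and Gzma at 23117 against 25556 CPM (−0.14), and the median of Gzma over cells was on the other side, 23418 against 19687 CPM. In cells with neither Cd8 gene both were past 1.5-fold lower, Gzma at −0.61 (−0.65 to −0.57) and Gzmb at −0.66 (−0.71 to −0.61). A transcript that holds several percent of all UMIs lowers the share of every other one.

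IL-10 itself (chr1:131019845-131024974) was at 439.6 CPM (390.5 to 493) in the cycling and 598 CPM (577 to 620) in the other cells, 1.36-fold lower (1.21 to 1.54) and so short of 1.5-fold. Ifng was 1.48-fold lower (1.26 to 1.76). Of the 6 cytokine genes with enough UMIs, Il17a and Il17f were past 1.5-fold upwards and Csf1 downwards. Of 15 measured transcription factors that bear on Il10, 0 were higher and 1, Maf, was lower past 1.5-fold, at 343 against 542 CPM. Its log2 ratio of −0.66 was short of 1.5-fold in cells with neither Cd8 gene (−0.40, −0.61 to −0.19) and was −0.034 against depth-matched other cells. Batf (0.26), Prdm1 (−0.37), Ahr (0.41), Stat3 (−0.57) and Bhlhe40 (−0.46) were within it. Genes of the T cell receptor response were also on the low side, with 4 of 13 lower, 1 higher (Nfkbid, 0.59) and a median of −0.41. Of this list, Egr1 (−0.26), Rgs2 (−0.39) and Cblb (−0.36) were short of 1.5-fold against depth-matched other cells. At 2000 UMIs Dusp5 (−0.46), Rgs2 (−0.45) and Cblb (−0.51) were. Egr1 (−0.74) and the phosphatase gene Dusp5 (−0.78, but 0.12 in cells with both Cd8 genes) were among the lower, and Nr4a1 (0.09, −0.25 to 0.41) was level within its interval. Of the residence genes, Itgae, which encodes CD103, was at 173 against 169.5 CPM, and 1 of 8 was past 1.5-fold, namely Cd7 (0.68, but 0.28 against depth-matched other cells).

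**Figure D3:**
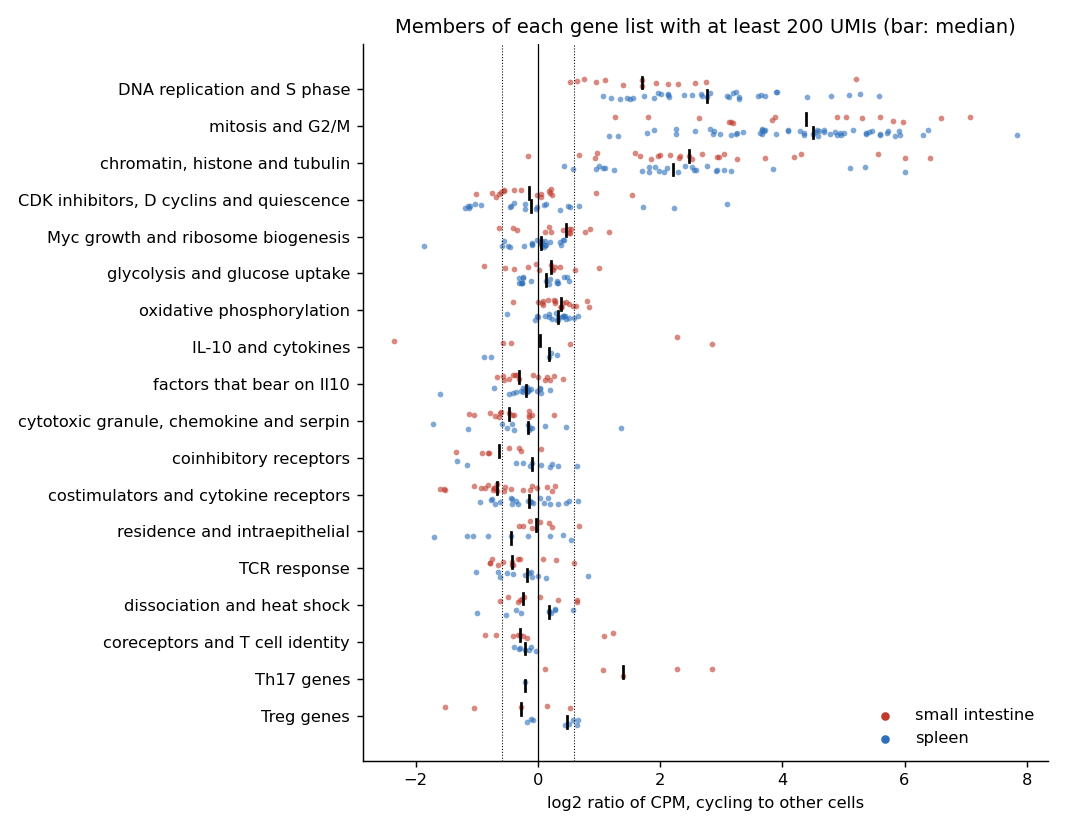
Each point is a gene of a list with at least 200 UMIs over cycling and other cells of that tissue, placed by its log2 ratio of CPM, red for the small intestine and blue for the spleen, with black bars at the medians and dotted lines at 1.5-fold. The 3 proliferation lists lie to the right in both tissues, while the red points of coinhibitory and costimulatory receptors lie mostly left of 0 and the blue ones around it.

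The deeper the cell, the lower was Lag3, also among cells that were not cycling. So both groups were compared within 4 depth classes set at the quartiles of the cycling cells. From the shallowest class to the deepest, the cycling and other cells numbered 24 and 1129, 23 and 117, 23 and 49, and 24 and 19. Lag3 was lower in the cycling cells in each class, at 1698 against 2616 CPM in the first and 697 against 1057 CPM in the last. Tnfrsf4 was at 377 against 1037, 262 against 993, 564 against 916 and 246 against 570 CPM. Ccl5 was lower and Stmn1 higher in every class as well, Stmn1 with 1163 against 51.8 CPM in the deepest. Il10 was lower in 3 classes and higher in the third (546 against 515 CPM). With cells of both groups drawn to the same number in each class (89 of each, with medians of 6209 and 6213 UMIs), the log2 ratio of Lag3 was −1.13, that of Tnfrsf4 −1.35 and that of Il10 −0.34. Other genes named above as past 1.5-fold were short of it in that comparison, among them Mcm6 (0.45), Cox7a2 (0.52), Sdhd (0.34), Cox5a (0.19), Hspa8 (0.52), Egr1 (−0.26) and Ccnd2 (−0.55). At 2000 UMIs this held for Havcr2 (−0.40), Cd27 (−0.27), Dusp5 (−0.46) and Slc2a3 (−0.53).

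Cd8a and Cd8b1, the chains of the CD8 coreceptor, were among the few T cell genes with higher levels. Cd8a (chr6:71373427-71379173) was at 399 CPM against 188 (2.13-fold, 1.85 to 2.44) and Cd8b1 (chr6:71322788-71337494) at 332 CPM (289 to 379) against 142 (132 to 153). UMIs of either were found in 36 of 94 cycling cells (38.3%, 28.5 to 48.9; median 6432 UMIs) and in 204 of 1314 other cells (15.5%, 13.6 to 17.6; median 3607 UMIs). Both genes were found together in 26 (27.7%) and 119 (9.06%), or at 2000 UMIs in 15 of 93 (16.1%, 9.32 to 25.2) and 101 of 1163 (8.68%, 7.13 to 10.5). As a measure of free RNA, intestinal cells outside the cycling group with at least 2 UMIs of Il17a, Il17f and Ccr6, genes of Th17 cells, had either gene in 0 of 41 cells, which allows a share of up to 7.32% by 3 counts (exact upper bound 8.60%), at a median of 4003 UMIs. After thinning to 2000 UMIs, with cycling status again kept from the deposited counts, the shares with either gene were 31 of 93 (33.3%, 23.9 to 43.9) and 168 of 1163 (14.4%, 12.5 to 16.6).

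That difference was not the same at all depths. In the shallowest class 29.2% of cycling and 13.6% of other cells had Cd8a or Cd8b1 UMIs, and in the second class 52.2% (30.6 to 73.2) and 18.8% (12.2 to 27.1). In the third class the shares were 30.4% and 34.7%, and in the deepest 41.7% (22.1 to 63.4) of 24 cycling against 63.2% (38.4 to 83.7) of 19 other cells. Cd8a itself was at 320 against 307 CPM in the third class and 466 against 927 CPM in the fourth. Among other cells the share was thus higher at greater depth, and above 6441 UMIs no higher share in cycling cells could be seen at these cell numbers. With equal numbers drawn per depth class the log2 ratio of Cd8a was −0.04 and of Cd8b1 0.24.

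**Figure D4:**
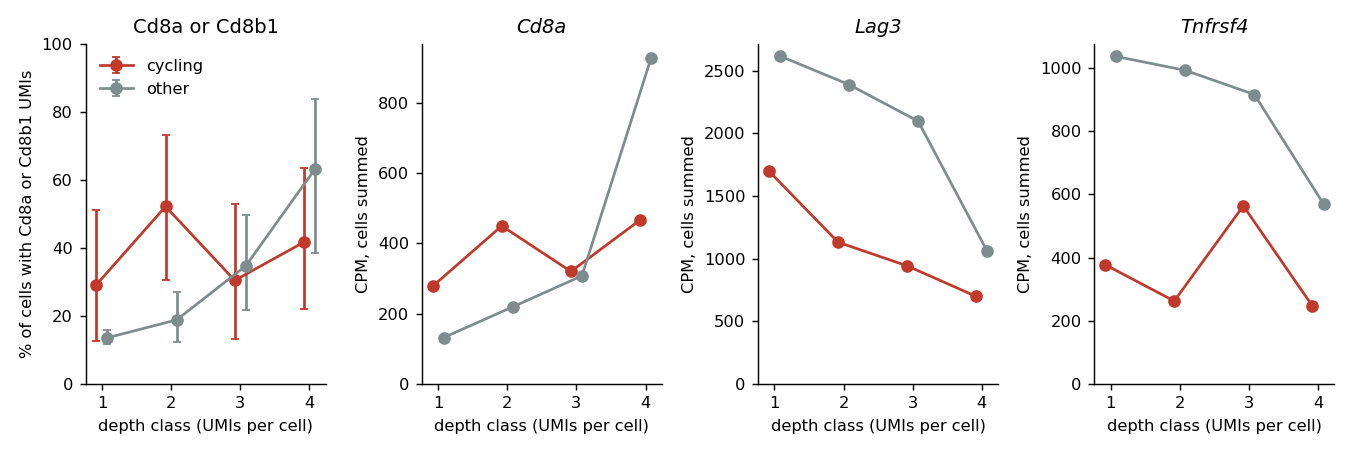
The 4 depth classes of intestinal cells, from shallow (1) to deep (4), on the x axis, with cycling cells in red and other cells in grey. The left panel gives the percent of cells with Cd8a or Cd8b1 UMIs with exact 95% intervals, where the lines cross between classes 2 and 3, and the other panels give CPM of Cd8a, Lag3 and Tnfrsf4, of which the last pair stays lower in cycling cells in all classes.

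In the list of coreceptors and T cell identity, Cd4 and Cd2 were past 1.5-fold downwards and both Cd8 genes upwards among 9 measured. The log2 ratio of Cd4 was −0.68, but −0.29 against depth-matched other cells and −0.35 at 2000 UMIs, both short of 1.5-fold. Cd4 was detected in 69 of the 94 cycling cells (73.4%) and in 945 of the 1314 others (71.9%), but its level was 256 against 411 CPM, and at 2000 UMIs the shares were 44.1% and 55.2%. Cells with Cd4 together with Cd8a or Cd8b1 were 18 of 94 (19.1%) and 107 of 1314 (8.14%). Cells with Cd8a or Cd8b1 and no Cd4 UMI were another 18 of 94 (19.1%, 11.8 to 28.6) and 97 of 1314 (7.38%, 6.03 to 8.93), or 24.7% and 10.1% at 2000 UMIs. Those cells go against the CD4+ label by their transcripts, although a missing Cd4 UMI does not show that the gene was silent. No coreceptor UMI was found in 7 of 94 (7.45%) and 272 of 1314 (20.7%), and at 2000 UMIs in 31.2% of 93 (22.0 to 41.6) and 34.7% of 1163 (31.9 to 37.5). Turned round, with the Cd8 genes read at 2000 UMIs and cycling status at the deposited depth, 12.9% (7.42 to 20.4) of the cells with both Cd8 genes were cycling, and 5.87% (4.53 to 7.46) of the cells with neither. Cd7, a surface protein of intraepithelial T cells, was at 844 against 528 CPM (log2 0.68, 0.54 to 0.81). Within cells that had neither Cd8 gene its log2 ratio was −0.12 (−0.42 to 0.16), and within those with both it was 0.23 (0.06 to 0.40). In the 2 deeper depth classes Cd7 was lower in cycling cells, at 616 against 866 and 913 against 1150 CPM.

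The lower receptor levels were looked at inside these cell classes. In the 58 cycling and 1110 other cells without Cd8a and Cd8b1 UMIs, Lag3 was at 983 against 2648 CPM (log2 −1.43, −1.58 to −1.29), Tnfrsf4 at 513 against 1165 CPM (−1.18, −1.39 to −0.98) and Ccl5 at 17355 against 48578 CPM. In the 26 and 119 cells with both Cd8 genes, Lag3 was at 1063 against 1453 CPM (−0.45, −0.68 to −0.23) and Tnfrsf4 at 38.4 against 157 CPM (−2.03, −3.38 to −0.93). Tnfrsf18 had −0.87 and −0.99 in the classes. Il10 had −0.32 (−0.53 to −0.12) in the cells without and −0.06 (−0.54 to 0.40) in those with both Cd8 genes, where it was at 279 and 291 CPM. Lag3, Tnfrsf4, Ccl5 and Nkg7 were thus lower in cycling cells in both classes. Ccl4 had −1.50 (−1.73 to −1.28) in the cells without and −0.15 (−0.38 to 0.08) in those with both Cd8 genes.

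Th17 transcripts were concentrated in few cells. Il17f (chr1:20777146-20790617) was at 411 against 57.0 CPM, but its 271 UMIs came from 6 of the 94 cells, 109 of them from 1 cell, and 250 lay in the deepest of the 4 depth classes. Among the other cells, 1 held 123 of 280 Il17f UMIs and 4 held 208, so that level also rests on few cells. Il17a was at 164 against 33.8 CPM in 12 cells, and Il22 at 71.2 against 24.2 CPM in 6 cells. Without the cycling cell that held most, the log2 ratio of Il17f was 2.11 (1.82 to 2.39) instead of 2.85, that of Il17a 1.43 (0.98 to 1.86) instead of 2.28, and that of Il22 −0.19 (−1.10 to 0.61). The top cell of the other group was kept in these ratios. Tmem176a and Tmem176b, membrane proteins found in Th17 cells, had 0.96 and 0.76 without their top cycling cell, and at 2000 UMIs Tmem176a had 0.31, short of 1.5-fold. Counted by cells, 12 of 94 cycling (12.8%, 6.77 to 21.2) and 41 of 1314 other cells (3.12%, 2.25 to 4.21) had at least 2 UMIs of Il17a, Il17f and Ccr6 together. With these genes read at 2000 UMIs and cycling status at the deposited depth, 7 of the 34 such cells were cycling (20.6%, 8.70 to 37.9) and 86 of 1222 cells below that (7.04%, 5.67 to 8.62).

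The genes lowest by ratio included some that rest on very few UMIs or cells. Cxcl13, a chemokine, had 0 UMIs in the cycling cells and 225 in the others, at least 10.1-fold lower with 3 UMIs as the floor, but 195 of the 225 were in 1 cell. Cd74, the MHC class II invariant chain, had 1 against 327 UMIs, of which 4 cells held 296. Kdm5b (chr1:134560171-134635285), a histone H3 lysine 4 demethylase, had 1 against 285 UMIs spread over 244 cells (38.3-fold lower, 6.81 to 1516), and had a log2 ratio of −2.81 in the splenic cycling cells. Tcp11l2 was 12.2-fold lower (5.17 to 37.6), at 5 against 453 UMIs, and 6.78-fold lower in the spleen. Csf1, a macrophage growth factor, was 5.12-fold lower at 7 against 267 UMIs, and Ecm1, a secreted matrix protein, 3.33-fold (2.41 to 4.74). Of the 38 Ecm1 UMIs in cycling cells, 18 were in 1 cell.

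The spleen, where the same rule was applied, also had higher levels of the cell cycle lists, and had ratios nearer 0 for several receptors. The mitosis list had 55 of 55 measured members higher with a median of 4.51, and the replication list 35 of 35 with 2.76, over more members than passed the filter in the intestine. For Lag3 the splenic log2 ratio was −0.24 (−0.29 to −0.19) and the intestinal one −1.34 (−1.45 to −1.22), for Tnfrsf4 −0.08 and −1.52. Il10 had 0.21 (0.13 to 0.29) against −0.44 (−0.62 to −0.27), Ctla4 0.65 against −0.28, and Ccl4 0.47 against −1.04. Ccl5 had −1.14 and −1.13. Of 22 splenic costimulators and cytokine receptors 5 were lower and 1 higher (median −0.14), and of 11 coinhibitory receptors 2 were lower and 1 higher (median −0.10). For Lag3 the difference of log2 ratios, intestine minus spleen, was −1.09 (−1.22 to −0.97), for Tnfrsf4 −1.44 (−1.64 to −1.25) and for Il10 −0.66 (−0.85 to −0.47). These intervals hold counting error alone, and with 1 library per tissue the difference was not tested. The make-up of the groups differed too. Of 344 splenic cells with Foxp3 UMIs 146 (42.4%) were cycling, and of 29 such intestinal cells 2 (6.90%). The part that make-up and depth have in the difference between tissues was not tested.

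**Figure D5:**
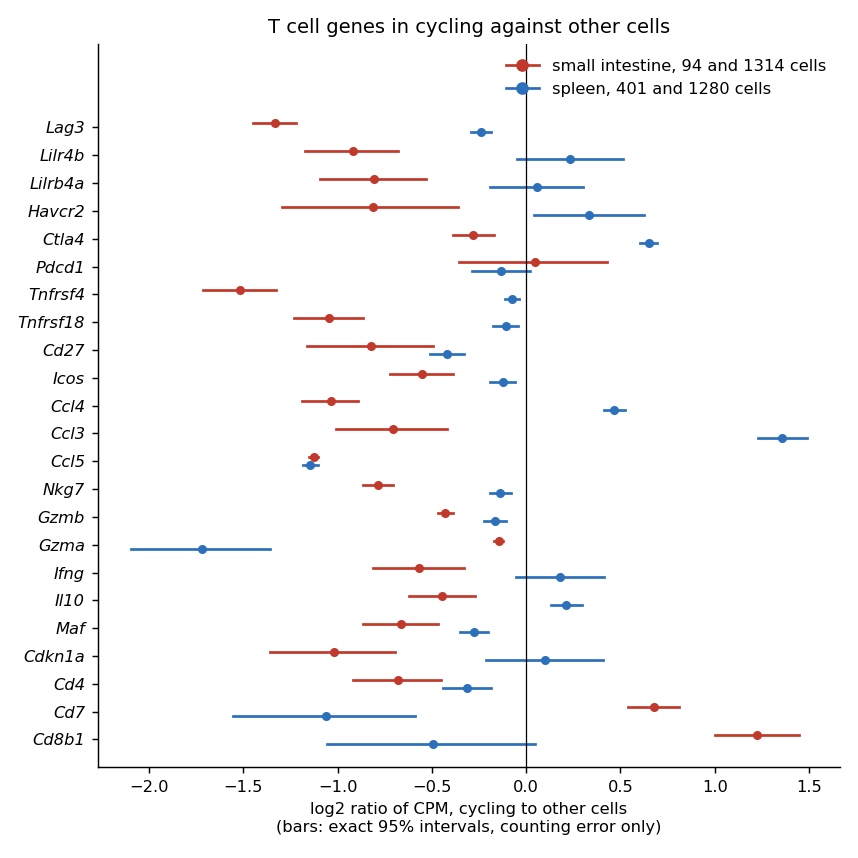
Points are log2 ratios of CPM in cycling to other cells for T cell genes, red for the small intestine and blue for the spleen, and bars are exact 95% intervals of counting error. Lag3 (−1.34 and −0.24), Tnfrsf4 (−1.52 and −0.08) and Ccl4 (−1.04 and 0.47) lie further left in the intestine, while the points of Ccl5 lie close together.

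Intestinal and splenic cycling cells were last compared with each other. Of 3251 genes with at least 200 UMIs, 346 (10.6%) were at least 1.5-fold higher in the intestine and 740 (22.8%) lower, around a median log2 ratio of −0.17. With scaling by the median ratio the numbers were 511 and 514, so the ratios that follow are given relative to that median. Gzma, at 23117 against 18.2 CPM, was 10.48 higher on the log2 scale, Klrd1, an NK receptor chain, 6.96, Cd7 6.33, Cd8b1 5.21, Ccl5 4.09 and the gut-homing receptor Ccr9 4.03. Cd8a had 0 UMIs in the splenic cycling cells and was at least 540-fold higher in the intestine, with 3 UMIs over the splenic group as the floor. Foxp3 was lower, at 4.55 against 68.9 CPM (−3.75), as were the inhibitory receptor Btla (−3.95) and Pglyrp1, a peptidoglycan recognition protein (−3.78). Il10 differed by −0.06 (−0.25 to 0.11) and Lag3, at 985 against 1023 CPM, by 0.12. The lowest of these rest on few intestinal UMIs, such as 2 for Btla and 3 for Foxp3. Of 57 measured mitosis genes 19 were higher and 1 lower before centring, and 28 and 1 relative to the median. Of 22 measured genes of the Myc growth and ribosome biogenesis list 0 were higher and 21 lower before centring, and 0 and 19 relative to the median, with Npm1 at 652 against 1018 CPM.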

How the data were processed

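The UMI counts per gene and barcode were deposited by the authors as made by Cell Ranger on mm10 (GRCm38) after Trimmomatic, with no normalization, for 28009 genes in 1474 barcodes of the small intestine (5693395 UMIs) and 1738 of the spleen. Tool versions are not given in the sources used here. Levels were UMIs summed over cells per 1000000 (CPM), with exact Poisson intervals, ratios had exact conditional binomial intervals and shares exact (Clopper-Pearson) ones, all at 95% and for counting error only. Genes needed 200 UMIs over both groups. The 5 rule genes were left out of the counts. Cells are not replicates and each tissue had 1 library, so no p-value was computed. Each cell was thinned at random to 2000 UMIs for comparisons of shares, which left out shallower cells. Cell cycle calls came from cyclone (scran 1.30.0, R 4.3.3, 1000 iterations) and doublets from Scrublet in scanpy 1.11.5. Doublets were not removed. Alternatives changed the score and mitochondrial cuts, the scaling, the depth, the UMI filter and the fold, and left out deep cells, Scrublet calls or cells with Cd8 genes. The ratio and interval functions were tested on simulated data. Python 3.11.15 with numpy 2.4.6, scipy 1.17.1, pandas 2.3.3 and matplotlib 3.10.9 was used.

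The genes named are the 15 highest and 15 lowest by ratio among genes with 200 UMIs, the 8 highest and 8 lowest between tissues, and members of the gene lists, of which 439 of 450 symbols are listed in the files. Some genes that this choice covers are not reported here, and the class of cells with Th17 genes was built on 3 of its 4 planned genes. The members and the lists were chosen with earlier results of these data known. Gene positions are from GENCODE M21 (GRCm38), promoters from RefSeq (GRCm38.p6). Comparisons by depth class and within cells by Cd8 and Th17 genes, and the alternatives without the top cell of a gene or with called S and G2/M cells alone, were chosen after seeing the data.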

Additional observations from a re-analysis of the deposited data

Results flagged for a closer look

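The log2 ratio of cycling to other cells of Cd7 was 0.68 among intestinal and −1.06 among splenic cells, a difference of 1.74, and that of Ccl3 was −0.71 and 1.36, a difference of −2.06. Both were marked because the tissues went in opposite directions. The difference was not tested, since each tissue had 1 library, the intestinal Cd7 ratio was 0.28 against depth-matched other cells, and the splenic Cd7 level rests on 48 UMIs in cycling cells. Without the other cell that held 110 of 1289 UMIs, the intestinal Ccl3 ratio was −0.58 (−0.88 to −0.29), short of 1.5-fold. Of the 66 intestinal barcodes at or above the mitochondrial cut, 5 had at least 4 UMIs of the rule genes. These barcodes were marked because they carry the signal of the rule outside the cells compared. The transcript of the fluorescent protein TurboFP635 had 7 UMIs in all intestinal barcodes, 3 of them in cycling cells, and 0 in the spleen. The mRFP reporter of Foxp3 had 10 UMIs in the intestine, 1 of them in a cycling cell, and 153 in the spleen. Both were marked as signals outside the comparisons.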

How the results depend on the processing

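Of 238 named genes tested, 123 were past 1.5-fold between intestinal cycling and other cells, and 10 of these changed direction in at least 1 of up to 15 alternatives. Genes that kept their direction but fell short of 1.5-fold are not in that count of 10, and several are named above. Thinned to 2000 UMIs, Pgk1 was at −0.10 (log2). Against depth-matched other cells, Cd8a was at −0.045, Btg2 at 0.15, Tob1 at 0.061, Cd40lg at 0.013, Il18r1 at 0.14 and Junb at 0.13. Without cells with Cd8a or Cd8b1, Cd7 was at −0.12. In cells with Cd8a and Cd8b1 alone, an alternative chosen after seeing the data, Cd8a was at −0.10, Cdkn1a at 0.56, Il18r1 at 1.69 and Dusp5 at 0.12. Without cells with Th17 genes, also chosen then, the median of the Th17 list was −0.041. The cause of these changes was not tested. Lag3 stayed between −1.43 and −0.45 and Tnfrsf4 between −2.03 and −1.18 in all of the alternatives counted here. Some comparisons inside cell classes lay outside that range for Tnfrsf4. It was at −0.85 (−1.46 to −0.28) in cells with at least 2 UMIs of the Th17 genes, and at 564 against 916 CPM in the third depth class. Counts of genes at least 1.5-fold higher and lower were 699 and 687 with a filter of 100 UMIs and 126 and 163 with one of 500, and 142 and 72 with a fold of 2, and outside the filters they are over the same 3481 genes. Cycling cells numbered 60 in the intestine and 238 in the spleen when thinned. The share of cycling cells among those with under 5 Ccl5 UMIs was 0.855% as deposited and 10.1% with Ccl5 read at 2000 UMIs and cycling status kept as deposited.

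Depth limits genes under 200 UMIs, where 3 UMIs in cycling cells are already 4.55 CPM, and classes of under 30 cells. No paired analysis was possible because each tissue had 1 library and no test was made. Alternatives that leave out a replicate were not run for the same reason.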
